A study of Mus musculus with 12 samples.

Results

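The genes described here encode the Jun and Fos subunits of the transcription factor AP-1 (*Jun*, *Junb*, *Jund*, *Fos*, *Fosb*, *Fosl1* and *Fosl2*), the early growth response factors *Egr1* and *Egr2*, and *Myc*. They were chosen by name, with earlier results of these data known, as 10 of the 24453 genes in the count table. All 10 passed the filter on low counts. RNA-seq measured them in 12 libraries of 4 mouse embryonic fibroblast (MEF) lines, with 3 cultures per line.

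TM6 is the parental line, MEFs of the C57BL6/J strain with the genotype *Pnpt1* neo-flox/neo-flox, immortalized with SV40 large T antigen and left with PNPase and mitochondrial DNA (mtDNA). PNPase, the product of *Pnpt1*, is a mitochondrial exoribonuclease. The rho0 line was made from TM6 with ditercalinium, a compound that depletes mtDNA, at 750 ng/mL for 3 weeks, and then cloned from one colony. The PNPase knockout clones 1 and 6, called PKO-1 and PKO-6, each came from a single TM6 cell after infection with an adenovirus carrying Cre recombinase. Cre removes a loxP-flanked part of *Pnpt1*. The paper reports that PKO-1 and PKO-6 also lost their mtDNA and did not respire. All 4 lines thus come from the same floxed cells and were kept in medium with 50 µg/mL uridine, which cells without respiration need to make pyrimidines. Each derived line is 1 clone, so the effect of a treatment and the history of that clone cannot be told apart, and the 3 cultures measure the spread within a clone.

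AP-1 is a dimer of basic leucine zipper proteins, in which a Jun protein pairs with another Jun or with a Fos protein. *Fos*, *Fosb*, *Junb*, *Egr1*, *Egr2* and *Myc* are immediate early genes: in fibroblasts, serum and growth factors acting through MAP kinases switch them on within minutes without new protein synthesis, and their mRNAs are short-lived. *Fosl1* and *Fosl2*, which encode FRA-1 and FRA-2, follow more slowly and stay on in growing and transformed cells, EGR proteins are zinc finger factors restrained by NAB corepressors, and MYC pairs with MAX to drive genes of growth and ribosome production.

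The promoters of *Fos*, *Fosb* and *Egr2* are shown. Among the 7 members whose windows are described here, these genes had the widest spread, relative to the mean, between cultures of PKO-6. *Egr1*, with a wider relative spread, is not among those 7. Each window runs from 250 bases before to 50 after the transcript start in RefSeq (GRCm38.p6) and is written 5′ to 3′ on the strand of the gene. Capitals mark matches, on either strand, to the searched motifs, which were the AP-1 site TGANTCA, the cyclic AMP response element TGACGTCA, the CArG box bound by serum response factor, the EGR sites GCGTGGGCG and GCGGGGGCG, the E-box CACGTG bound by MYC and MAX, and the GC box GGGCGG.
*Fos*, chr12:85473640-85473939, plus strand: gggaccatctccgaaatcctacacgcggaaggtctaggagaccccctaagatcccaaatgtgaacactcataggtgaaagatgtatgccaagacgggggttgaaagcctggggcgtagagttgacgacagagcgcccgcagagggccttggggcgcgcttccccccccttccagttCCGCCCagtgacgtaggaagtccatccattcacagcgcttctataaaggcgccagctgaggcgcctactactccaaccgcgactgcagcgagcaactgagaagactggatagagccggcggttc
*Fosb*, chr7:19309996-19310295, minus strand: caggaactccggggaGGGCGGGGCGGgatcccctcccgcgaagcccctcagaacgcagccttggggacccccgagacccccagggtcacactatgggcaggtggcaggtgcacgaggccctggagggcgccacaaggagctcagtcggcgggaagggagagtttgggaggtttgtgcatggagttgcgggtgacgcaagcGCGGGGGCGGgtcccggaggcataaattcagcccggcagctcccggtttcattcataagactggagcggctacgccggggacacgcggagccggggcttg
*Egr2*, chr10:67537619-67537918, plus strand: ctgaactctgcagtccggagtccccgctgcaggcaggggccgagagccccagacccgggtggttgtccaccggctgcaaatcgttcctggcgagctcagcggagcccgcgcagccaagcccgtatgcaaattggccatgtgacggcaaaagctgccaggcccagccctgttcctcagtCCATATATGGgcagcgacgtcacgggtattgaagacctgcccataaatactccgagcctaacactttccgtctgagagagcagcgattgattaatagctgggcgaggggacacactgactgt
The capitals in *Fos* are a GC box read on the opposite strand. In *Fosb* they are a pair of overlapping GC boxes and, nearer the start, an EGR site that overlaps another GC box. In *Egr2* they are a CArG box, whose first base lies 72 bases before the start.

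Windows are described for 7 of the 10 genes, which leaves out *Egr1*, *Fosl1* and *Myc*. The AP-1 site was in 7.81% of all 32851 windows of this length, the cyclic AMP response element in 1.79%, the CArG box in 1.63%, an EGR site in 3.47%, the E-box in 7.15% and the GC box in 35.7%. Of the 7 members, *Fosb* and *Fosl2* held an EGR site, *Egr2* held a CArG box, and *Jun*, *Fos*, *Fosb* and *Fosl2* held a GC box. A match is a description of the letters and not a measured binding site.

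Library totals were 47164860 to 67991378 estimated counts, and *Rn45s*, a ribosomal RNA precursor, held 12.2% to 19.6% of them. *Pnpt1* had 2832 to 3319 normalized counts in TM6, 5051 to 5510 in rho0, 1191 to 1276 in PKO-1 and 1720 to 2214 in PKO-6. These counts include exons outside the deleted part, so they are no full check of the knockout. The summed level of 12 fibroblast markers was 540400 to 588600 normalized counts in TM6, 453800 to 507100 in rho0 with *Lum* at 0, 612400 to 662600 in PKO-1 and 357900 to 399500 in PKO-6 with *Thy1* at 0. *Lum* and *Thy1* were also low in TM6, with means of 7.70 and 2.815. In rho0, 1 of 11 tested fibroblast markers was called higher and 8 lower (of all genes, 20.7% and 21.4%). It was 6 and 2 in PKO-1 (16.4% and 17.9%) and 2 and 6 in PKO-6 (21.9% and 19.4%). The call rule is given below. *Col3a1* had a mean of 4765, 476, 7011 and 329 in TM6, rho0, PKO-1 and PKO-6. For *Fn1* it was 113300, 237900, 259100 and 208400. The sum of 12 markers of other cell types was 123 to 170 in TM6, 175 to 255 in rho0, 139 to 155 in PKO-1 and 324 to 367 in PKO-6, with *Adgre1* at 0 in all 4 lines. Of 4 tested markers of this list, 2 were called higher and 0 lower in PKO-6 (of all genes, 21.9% and 19.4%). None was called in rho0 or PKO-1. *Cd68*, a leukocyte marker, had a mean of 91.6 in TM6 and 186 in PKO-6. *Epcam*, an epithelial marker outside the naming rule and picked after its values were seen, had 4.35 and 88.0. The part of these shifts in the results was not tested.

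Levels are given as normalized counts, which are estimated counts divided by the library's TMM-scaled size relative to the mean library. Fold changes are on the log2 scale with a standard error (SE), and a gene was called where edgeR's quasi-likelihood test gave a Benjamini-Hochberg adjusted p below 0.01 over 14026 tested genes and the absolute log2 fold change was above 0.5. In rho0 against TM6, 3 of the 10 genes were called higher, where 20.7% of all tested genes were, and 5 were called lower, where 21.4% were. In PKO-1 against TM6, 3 were higher against 16.4% of all genes and 2 lower against 17.9%. In PKO-6 against TM6, 4 were higher against 21.9% of all genes and 1 lower against 19.4%. The median absolute log2 fold change of the 10 genes was 1.29, 0.64 and 0.73 in rho0, PKO-1 and PKO-6, beside 0.48, 0.39 and 0.46 over all tested genes. These 3 comparisons share the TM6 libraries. The genes were chosen with earlier results of these data known, so setting them beside all genes is no independent test.

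**Figure D1:**
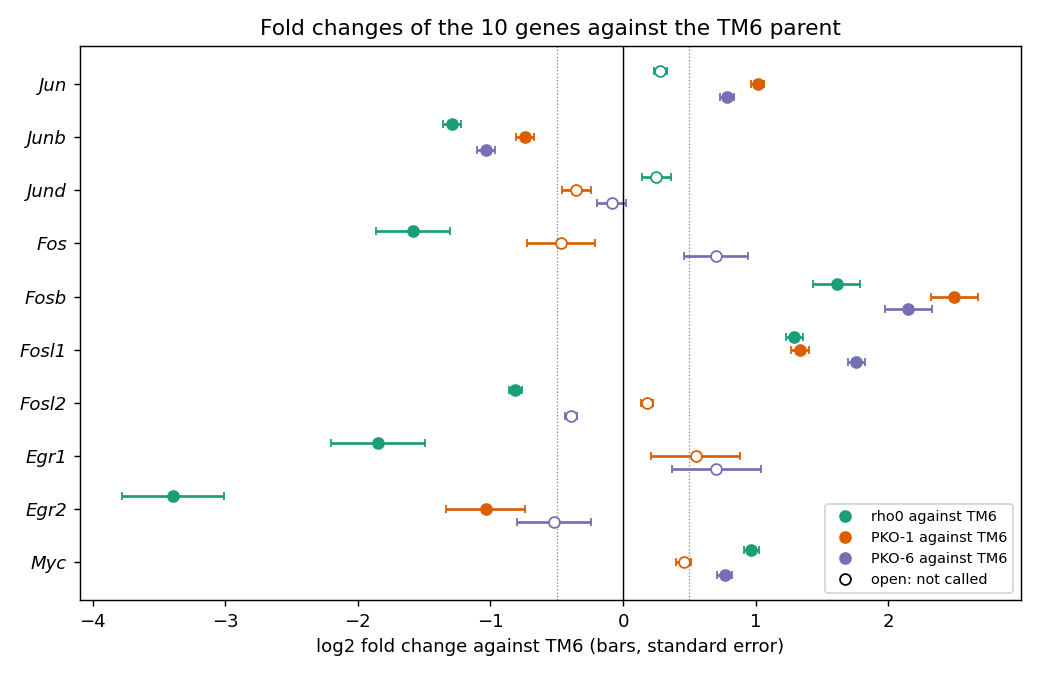
Log2 fold change of each gene in rho0, PKO-1 and PKO-6 against TM6, on the x axis, with standard errors as bars. Filled points passed the call rule, open points did not, and dotted lines mark log2 fold changes of -0.5 and 0.5; *Fosb* and *Fosl1* lie right of both lines and *Junb* left of both in the 3 derived lines.

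*Jun* encodes c-Jun, the AP-1 subunit with the strongest transactivation in its family. The gene has 1 exon and lies on the minus strand at chr4:95049036-95052222 (GRCm38, as are all gene positions here). Its level was 5244, 5159 and 5604 normalized counts in TM6, 6772, 6227 and 6452 in rho0, 10966, 10883 and 10466 in PKO-1, and 9037, 9179 and 9308 in PKO-6. The 4 lines did not overlap, with TM6 lowest and PKO-1 highest. *Jun* rose in PKO-1 by 1.01 (SE 0.05, adjusted p = 8.89e-10) and in PKO-6 by 0.78 (SE 0.05, adjusted p = 7.43e-09), while the rho0 difference of 0.28 (SE 0.05, adjusted p = 0.000192) stayed under the fold limit. Against rho0, *Jun* was higher in PKO-1 by 0.73 (adjusted p = 3.05e-08).

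*Junb* encodes a Jun protein that activates weakly and can restrain c-Jun. It is a gene of 1 exon on the minus strand at chr8:84976909-84978748. TM6 had 2904, 3070 and 3137 normalized counts, rho0 had 1367, 1141 and 1207, PKO-1 had 1733, 1824 and 1902, and PKO-6 had 1449, 1433 and 1561. All 9 libraries of the derived lines lay below all 3 of TM6, in the opposite direction to *Jun*. The log2 fold change was -1.29 in rho0 (SE 0.07, adjusted p = 1.19e-09), -0.74 in PKO-1 (SE 0.07, adjusted p = 3.86e-07) and -1.04 in PKO-6 (SE 0.07, adjusted p = 8.22e-09). In bulk RNA, fewer cells that express a gene and less RNA per cell cannot be told apart.

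*Jund*, the steadily expressed Jun gene, was not called in any line against TM6. It has 1 exon and lies at chr8:70697739-70700616 on the plus strand. Its level was 7056, 6687 and 5995 normalized counts in TM6, 9065, 6918 and 7501 in rho0, 5158, 5130 and 5154 in PKO-1, and 6424, 6981 and 5188 in PKO-6. PKO-1 lay below the other lines and its log2 fold change against TM6 was -0.35 (SE 0.11, adjusted p = 0.0114), while rho0 and PKO-6 overlapped TM6. *Jund* was lower in PKO-1 than in rho0 by a log2 fold change of -0.61 (SE 0.11, adjusted p = 0.000282). The 739 tested genes of chromosome 8, which holds *Junb* and *Jund*, had a median log2 fold change of -0.43 in PKO-6 against TM6; less that median, *Junb* was at -0.61 and *Jund* at 0.34 in PKO-6.

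*Fos* encodes c-Fos, the classic serum-induced AP-1 subunit, from 4 exons at chr12:85473901-85477270 on the plus strand. Its counts were low, at 137, 148 and 135 normalized counts in TM6, 52.3, 37.7 and 49.1 in rho0, 101, 83.1 and 119 in PKO-1, and 235, 131 and 315 in PKO-6. Rho0 was lowest and PKO-1 lay between rho0 and TM6, whereas PKO-6 spread from below TM6 to above it. *Fos* fell in rho0, with a log2 fold change of -1.58 (SE 0.28, adjusted p = 0.000170); in the fit with both knockout clones as 1 group the adjusted p was 0.0127. The differences from TM6 of -0.47 in PKO-1 (SE 0.26, adjusted p = 0.129) and 0.70 in PKO-6 (SE 0.24, adjusted p = 0.0193) did not pass. Without PKO-6 replicate 2 the PKO-6 value was 0.94 (adjusted p = 0.000315). The 491 tested genes of chromosome 12 had a median log2 fold change of 0.55 in rho0, 0.56 in PKO-1 and 0.53 in PKO-6, against which *Fos* stood at -2.14, -1.02 and 0.17.

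*Fosb*, a close relative of *Fos* with 4 exons at chr7:19302696-19310045 on the minus strand, rose in every derived line. Its counts, like those of *Fos*, were low, above all in TM6. TM6 held 75.2, 65.0 and 86.8 normalized counts of *Fosb*, with 256, 195 and 241 in rho0, 426, 447 and 409 in PKO-1, and 352, 251 and 403 in PKO-6. No derived library came near the TM6 range, and PKO-1 was the highest line. The log2 fold change was 1.61 in rho0 (SE 0.18, adjusted p = 2.19e-06), 2.50 in PKO-1 (SE 0.18, adjusted p = 2.99e-08) and 2.15 in PKO-6 (SE 0.18, adjusted p = 8.91e-08). *Fosb* thus differed from *Fos* in direction within rho0.

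*Fosl1* encodes FRA-1, a Fos protein without the C-terminal activation domain of c-Fos that accumulates in transformed and migrating cells. Its 4 exons lie at chr19:5447698-5455938 on the plus strand. TM6 had 3480, 3745 and 3955 normalized counts, rho0 had 9429, 8550 and 9365, PKO-1 had 9652, 9466 and 9043, and PKO-6 had 12007, 13449 and 12370. PKO-6 was the highest line, rho0 and PKO-1 overlapped, and TM6 was far below all of them. *Fosl1* rose by 1.29 in rho0 (SE 0.06, adjusted p = 6.99e-10), 1.33 in PKO-1 (SE 0.06, adjusted p = 6.78e-10) and 1.76 in PKO-6 (SE 0.07, adjusted p = 2.61e-11). The gene overlaps *Ccdc85b* on the opposite strand, and since it is not given in the sources used here whether counting used strand, their reads cannot be told apart; *Ccdc85b* had a log2 fold change of 0.36, 0.46 and 0.45 in rho0, PKO-1 and PKO-6.

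*Fosl2*, which encodes FRA-2 from 4 exons at chr5:32136472-32157839 on the plus strand, differed between all 4 lines. Its level was 9615, 9512 and 9665 normalized counts in TM6, 5573, 5391 and 5436 in rho0, 10768, 10880 and 11005 in PKO-1, and 7112, 7713 and 7074 in PKO-6. No line overlapped another, in the order rho0, PKO-6, TM6 and PKO-1 from low to high. *Fosl2* fell in rho0, with a log2 fold change of -0.81 (SE 0.05, adjusted p = 2.94e-09). The values of 0.18 in PKO-1 (adjusted p = 0.00350) and -0.39 in PKO-6 (adjusted p = 3.79e-06) stayed under the fold limit, but the clones differed from each other by 0.58 (SE 0.05, adjusted p = 1.44e-07). The 876 tested genes of chromosome 5 had a median log2 fold change of -0.21 in rho0, 0.09 in PKO-1 and 0.06 in PKO-6 against TM6. Less that median, *Fosl2* was at -0.60, 0.09 and -0.46. Against rho0, *Fosl2* less the chromosome median was at 0.67 in PKO-1 and 0.16 in PKO-6.

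**Figure D2:**
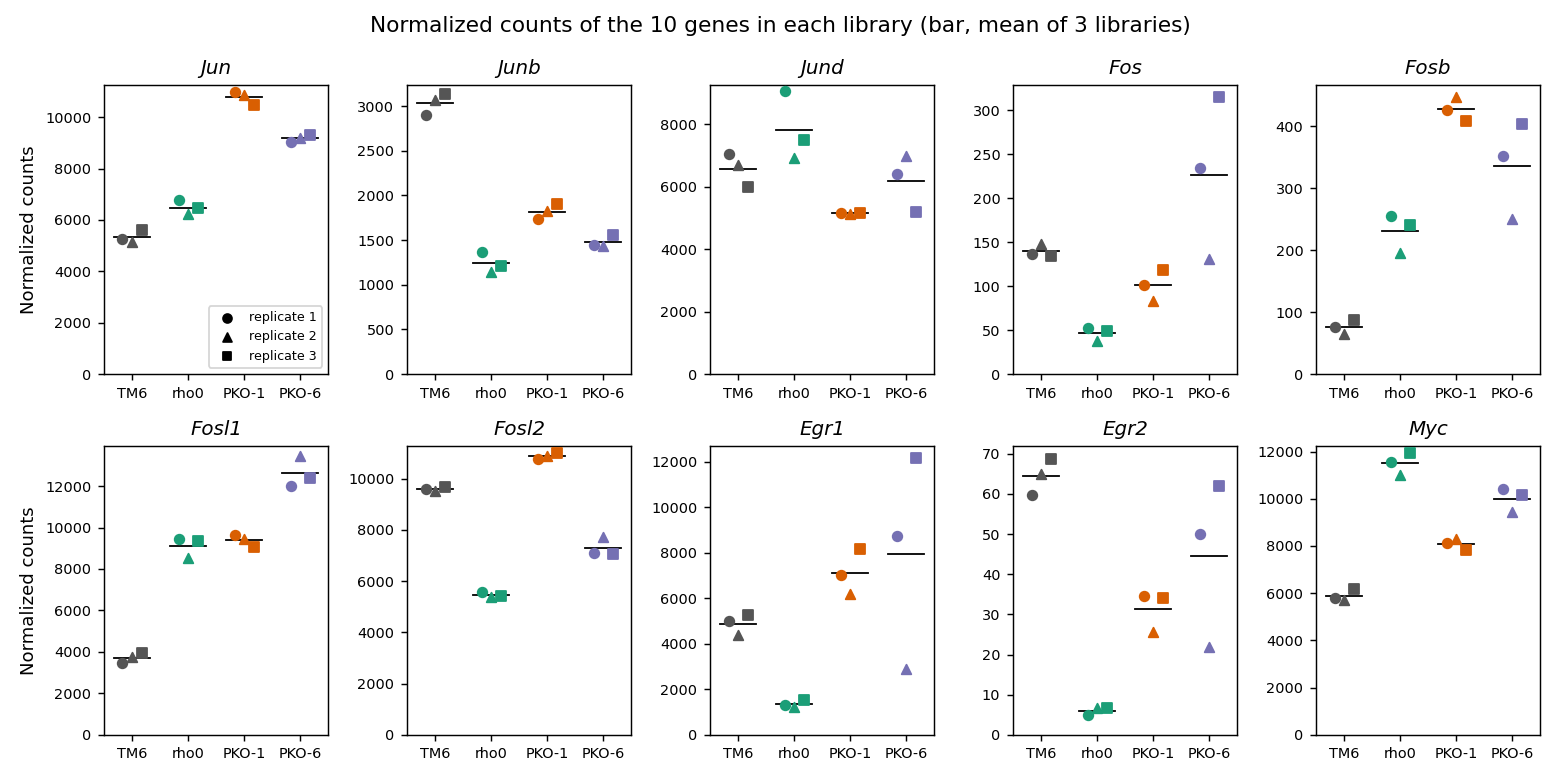
Normalized counts, on a y axis from 0 that is scaled per gene, of the 10 genes in the 12 libraries, with lines on the x axis, marker shapes for replicates and a bar at the mean of 3 libraries. *Junb* is highest in TM6 and *Fosl1* lowest there, and PKO-6 replicate 2, the triangle, lies well below the other PKO-6 libraries for *Fos*, *Fosb*, *Egr1* and *Egr2*.

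TPM values scale counts by transcript length and library size and so allow levels of different genes to be set side by side. In TM6, *Fosl1* (74.2 ± 4.88 TPM, SD, n = 3), *Jund* (73.9 ± 6.01), *Junb* (55.5 ± 2.22), *Jun* (53.8 ± 2.69) and *Fosl2* (51.2 ± 0.832) were of one order, and the top 2 did not differ beyond their spread. *Fos*, at 2.21 ± 0.093 TPM, and *Fosb*, at 0.637 ± 0.095 TPM, were far below. In the derived lines *Fosl1* had the highest TPM of the 7, at 179 ± 10.3 TPM in rho0, 179 ± 4.89 in PKO-1 and as much as 241 ± 15.9 in PKO-6.

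The TPM of the 7 Jun and Fos genes summed to 311 ± 4.0 in TM6, 383 ± 11.7 in rho0, 430 ± 12.0 in PKO-1 and 467 ± 22.9 in PKO-6. *Fosl1* made up 23.8% ± 1.33 of that sum in TM6, 46.6% ± 1.42 in rho0, 41.6% ± 0.819 in PKO-1 and 51.7% ± 1.06 in PKO-6. *Junb* went from 17.8% ± 0.564 in TM6 to 5.81% ± 0.175 in rho0, 7.40% ± 0.443 in PKO-1 and 5.59% ± 0.454 in PKO-6. *Jund* kept 22.5% ± 1.75 of the sum in rho0, near its 23.8% ± 2.17 in TM6, but held 12.9% ± 0.208 in PKO-1 and 14.3% ± 1.75 in PKO-6. *Jun* had its largest share in PKO-1, at 24.1% ± 0.235, beside 17.3% ± 0.639 in TM6. On estimated counts, which give long transcripts more weight, *Fosl2* was the largest part in TM6 at 33.7% and *Fosl1* had 13.1%, and *Fosl1* also led in rho0, and in PKO-6 at 33.8%, but in PKO-1, at 24.4%, it came after *Fosl2* at 28.2% and *Jun* at 27.9%.

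**Figure D3:**
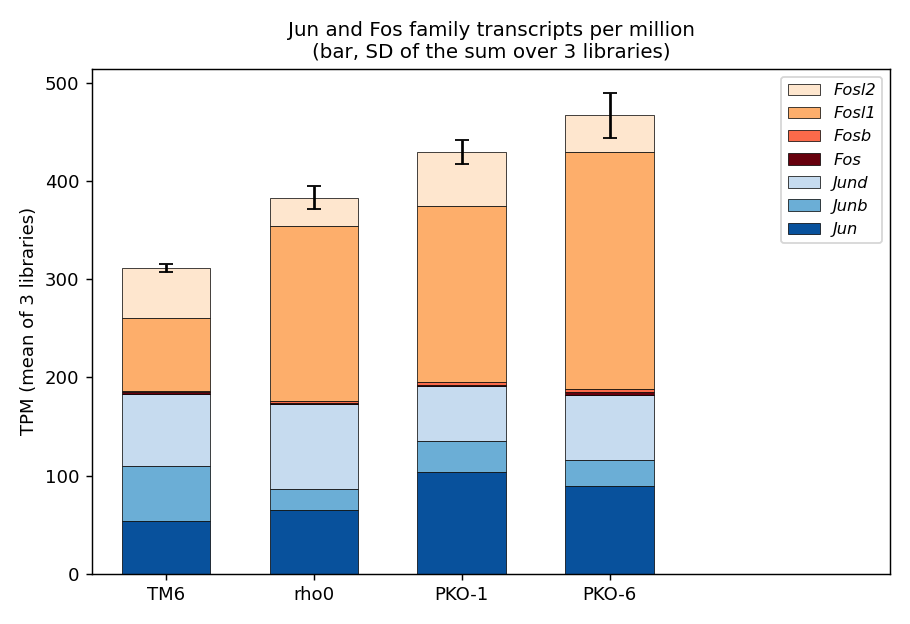
Mean TPM of the 7 Jun and Fos genes stacked for each line, with the SD of the sum over 3 libraries as error bar. The *Fosl1* segment grows from 74.2 TPM in TM6 to 241 TPM in PKO-6, while the *Junb* segment shrinks from 55.5 to 26.2 TPM.

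*Egr1*, a zinc finger factor that serum and stress induce, has 2 exons at chr18:34861207-34864956 on the plus strand. TM6 held 4985, 4406 and 5252 normalized counts of it, with 1313, 1237 and 1524 in rho0, 7019, 6204 and 8166 in PKO-1, and 8762, 2887 and 12167 in PKO-6. Rho0 was below all other libraries, PKO-1 was above TM6 without overlap, and PKO-6 spanned both sides of TM6. *Egr1* fell in rho0, with a log2 fold change of -1.85 (SE 0.35, adjusted p = 0.000342). The difference from TM6 was 0.55 in PKO-1 (SE 0.33, adjusted p = 0.169) and 0.70 in PKO-6 (SE 0.33, adjusted p = 0.0760) and did not pass in either. The calls changed when PKO-6 replicate 2, which enters both the shared estimate of the spread and the PKO-6 mean, was left out. PKO-1 was then at 0.52 (adjusted p = 0.00304) and PKO-6 at 1.07 (adjusted p = 1.58e-05). With TM6 and PKO-1 fitted alone, PKO-1 was at 0.53 (adjusted p = 0.000671). Why the calls changed was not tested. The 382 tested genes of chromosome 18 had a median log2 fold change of 0.42 in rho0, 0.42 in PKO-1 and 0.34 in PKO-6, and *Egr1* less that median was at -2.27, 0.13 and 0.36.

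*Egr2*, known for its part in myelination by Schwann cells, has 2 exons at chr10:67537869-67542188 on the plus strand and was low in all lines. TM6 held 59.7, 65.0 and 68.8 normalized counts of it, with 4.84, 6.65 and 6.70 in rho0, 34.5, 25.6 and 34.1 in PKO-1, and 50.0, 21.8 and 62.1 in PKO-6. Rho0 lay below all other libraries and PKO-1 lay below TM6, while PKO-6 reached into the TM6 range. *Egr2* fell in rho0, with a log2 fold change of -3.39 (SE 0.38, adjusted p = 2.54e-06), the largest among the 10 genes in any comparison with TM6. It also fell in PKO-1, at -1.04 (SE 0.30, adjusted p = 0.00735), but leaving out any 1 of the TM6 or PKO-1 libraries raised the adjusted p to between 0.0123 and 0.0353. In PKO-6 the value was -0.52 (SE 0.28, adjusted p = 0.114).

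*Myc*, with 3 exons at chr15:61985341-61990361 on the plus strand, was lowest in TM6, with 5784, 5699 and 6172 normalized counts, beside 11544, 11015 and 11935 in rho0, 8126, 8274 and 7822 in PKO-1, and 10395, 9424 and 10179 in PKO-6. The lines did not overlap and stood in the order TM6, PKO-1, PKO-6 and rho0. *Myc* rose by 0.97 in rho0 (SE 0.06, adjusted p = 2.84e-09) and by 0.76 in PKO-6 (SE 0.06, adjusted p = 2.50e-08), and its value of 0.46 in PKO-1 (SE 0.06, adjusted p = 6.62e-06) was just under the fold limit. The 561 tested genes of chromosome 15 had a median of -0.38, -0.23 and -0.09 in rho0, PKO-1 and PKO-6, so that *Myc* stood at 1.35, 0.69 and 0.86 above its chromosome. On the TPM scale *Myc* was at 80.5 ± 3.95 in TM6 and 155 ± 11.7 in rho0.

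With both knockout clones as 1 group against TM6, *Jun* (0.90), *Fosb* (2.33), *Fosl1* (1.56) and *Myc* (0.62) were called higher, 4 of 10 where 13.5% of all genes were. *Junb* (-0.88) was called lower, 1 of 10 where 12.2% of all genes were. The values of *Jund*, *Fos*, *Fosl2*, *Egr1* and *Egr2* lay between -0.76 and 0.63 and did not pass. The pooled fit treats 6 libraries as independent, but they are 3 cultures each of only 2 clones. Its calls therefore overstate the replication behind an effect of the knockout.

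The comparisons of the derived lines with each other set the knockouts beside a line that lost mtDNA with PNPase left in place. Per the paper the knockouts had lost mtDNA too. In PKO-1 against rho0, 7 of the 10 genes were higher, where 15.1% of all genes were, and 2 were lower, where 17.6% were. *Egr1* differed by 2.39 (SE 0.36, adjusted p = 5.54e-05), *Egr2* by 2.36 (SE 0.42, adjusted p = 0.000228), *Fos* by 1.12 (SE 0.29, adjusted p = 0.00384) and *Fosl2* by 0.99 (SE 0.05, adjusted p = 7.27e-10), and *Jun*, *Junb* and *Fosb* were higher too. *Jund* and *Myc* were the lower pair, *Myc* by a log2 fold change of -0.51. *Fosl1* had a difference of 0.04 (SE 0.06, adjusted p = 0.569). The call for *Fos* was lost without rho0 replicate 2, rho0 replicate 3, PKO-1 replicate 1 or PKO-1 replicate 3, at adjusted p of 0.0103 to 0.0201, that for *Junb* without rho0 replicate 2, at 0.49, and that for *Myc* without rho0 replicate 3 or PKO-1 replicate 3, at -0.49 and -0.48.

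In PKO-6 against rho0, 4 genes were higher, where 13.3% of all genes were, and 0 lower, where 8.16% were. *Egr2* was higher by 2.87 (SE 0.39, adjusted p = 3.87e-05), *Egr1* by 2.55 (SE 0.36, adjusted p = 4.89e-05) and *Fos* by 2.29 (SE 0.27, adjusted p = 1.13e-05). *Jun*, at 0.50, sat at the fold limit, and leaving out TM6 replicate 1, rho0 replicate 2, rho0 replicate 3, PKO-6 replicate 2 or PKO-6 replicate 3 moved it to between 0.46 and 0.49. It was 0.49, and no longer called, when *Rn45s* was omitted, with size factors from DESeq2, and with that tool's own Wald test. *Fosb* was at 0.54 (adjusted p = 0.0116), and at 0.70 without PKO-6 replicate 2 (adjusted p = 0.000902). *Egr1* and *Egr2* were lower in rho0 than in all 6 knockout libraries.

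Between the clones, in PKO-1 against PKO-6, 1 gene was higher, where 11.5% of all genes were, and 1 lower, where 17.6% were. *Fosl2* was the higher one and *Fos* the lower, at -1.17 (SE 0.25, adjusted p = 0.00117). Without PKO-6 replicate 2, *Egr1*, at -0.55 (adjusted p = 0.00417), and *Egr2*, at -0.83 (adjusted p = 0.00546), passed as well.

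PKO-6 replicate 2 stood apart for *Egr1*, *Egr2*, *Fos* and *Fosb*, 4 genes picked out after their values were seen. Its level over the mean of PKO-6 replicates 1 and 3 was 0.276 for *Egr1*, 0.389 for *Egr2*, 0.475 for *Fos* and 0.664 for *Fosb*. Over 12720 genes whose PKO-6 mean reached 20 normalized counts the median ratio was 1.02, with a 5th percentile of 0.718 and a 95th of 1.23. *Jund*, *Jun* (1.00), *Junb* (0.952), *Fosl1* (1.10), *Fosl2* (1.09) and *Myc* (0.916) lay within that range. Among 40 other immediate early genes, *Cxcl1* (0.437), *Btg2* (0.662), *Ptgs2* (0.683) and *Ier2* (0.691) were below it, *Ier5l* (1.40) was above it, and the others lay within it. Replicate 2 was not the lowest PKO-6 library in general, with 32.3% of all tested genes lowest there and 43.4% lowest in replicate 3.

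**Figure D4:**
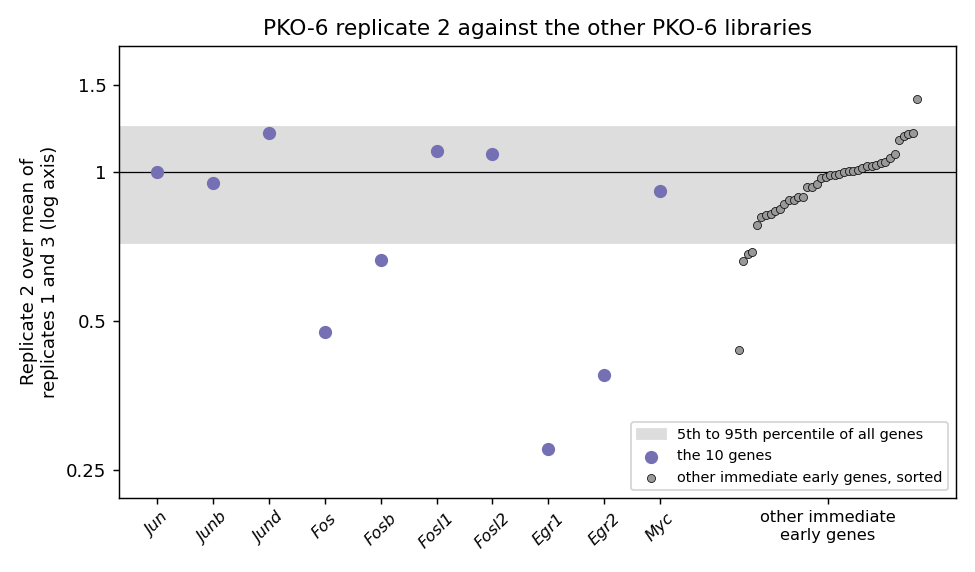
Ratio of normalized counts in PKO-6 replicate 2 to the mean of PKO-6 replicates 1 and 3, on a log y axis, for the 10 genes and for 40 other immediate early genes sorted by value. The grey band spans the 5th to 95th percentile of all genes, and *Egr1*, *Egr2*, *Fos* and *Fosb* lie below it.

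Other proteins pair with Jun and Fos or compete with them. Of 10 tested partners, 2 were higher and 3 lower in rho0 (of all genes, 20.7% and 21.4%), 1 and 3 in PKO-1 (of all genes, 16.4% and 17.9%), and 3 and 2 in PKO-6 (of all genes, 21.9% and 19.4%). *Atf3*, a stress-induced partner of Jun proteins, had a mean of 484 normalized counts in TM6, 2085 in rho0, 453 in PKO-1 and 1469 in PKO-6, and rose in rho0 by 2.11 (SE 0.09) and in PKO-6 by 1.60 (SE 0.09). *Jdp2*, a repressor that dimerizes with Jun, rose by 1.29 in rho0, 0.74 in PKO-1 and 1.42 in PKO-6. *Maf*, a large Maf factor, fell in all 3 lines, with log2 fold changes of -5.23, -4.09 and -3.46.

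Around the EGR genes, *Nab2*, which encodes an EGR corepressor that EGR1 itself induces, had a mean of 7649 normalized counts in TM6, 3074 in rho0, 6465 in PKO-1 and 2783 in PKO-6. It fell in rho0 (-1.31) and in PKO-6 (-1.46). *Egr3*, outside the naming rule and picked after its values were seen, had a mean of 116, 22.6, 103 and 24.8 in TM6, rho0, PKO-1 and PKO-6, and so was low in PKO-6 where *Egr1* was not. Of the 3 tested genes of this list 3, 0 and 2 were lower and 0 higher in rho0, PKO-1 and PKO-6, where 21.4%, 17.9% and 19.4% of all genes were lower. Of 6 tested genes of serum response factor and its cofactors 4, 3 and 3 were lower and 0 higher beside the same shares, among them *Srf* itself, at -0.99, -0.57 and -0.71, and its ETS-type cofactor *Elk1*, at -0.89, -0.85 and -0.96.

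Upstream, 6 of 26 MAP kinase cascade genes were higher and 8 lower in rho0 (of all genes, 20.7% and 21.4%), 4 and 2 in PKO-1 (of all genes, 16.4% and 17.9%), and 5 and 9 in PKO-6 (of all genes, 21.9% and 19.4%). *Mapk13*, a p38 kinase, rose by 1.97, 2.84 and 2.31 in rho0, PKO-1 and PKO-6. A list of 18 genes covered feedback on ERK and genes that ERK signaling induces, and not all are specific to ERK. Of these, 6 were higher and 2 lower in rho0, 8 and 2 in PKO-1, and 11 and 3 in PKO-6. The shares over all genes are those just given. *Dusp6*, a phosphatase that switches ERK off, had a mean of 1836 normalized counts in TM6, 3640 in rho0, 6316 in PKO-1 and 8921 in PKO-6, and *Spry3* rose by 1.97, 2.82 and 2.45. *Dusp10*, which acts on JNK and p38, fell in rho0, PKO-1 and PKO-6 (-1.56, -0.84 and -0.79).

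Of the 40 other immediate early genes, 10 were higher and 19 lower in rho0 (of all genes, 20.7% and 21.4%), 14 and 10 in PKO-1 (of all genes, 16.4% and 17.9%), and 16 and 15 in PKO-6 (of all genes, 21.9% and 19.4%). *Nr4a1*, an orphan nuclear receptor, rose by 0.71 in rho0, 1.66 in PKO-1 and 2.34 in PKO-6, and *Gadd45a*, a growth arrest gene, by 3.63, 0.78 and 3.25. *Cxcl1*, a chemokine, fell in rho0 (-3.81) and PKO-6 (-1.10) and was at -0.68 in PKO-1 (adjusted p = 0.0298). The medians of this list were -0.40, -0.15 and -0.01, beside 0.02, 0.00 and 0.01 over all tested genes.

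Of 19 tested genes known as AP-1 targets, 4 were higher and 8 lower in rho0 (of all genes, 20.7% and 21.4%), 8 and 3 in PKO-1 (of all genes, 16.4% and 17.9%), and 12 and 6 in PKO-6 (of all genes, 21.9% and 19.4%). *Hmga1*, a chromatin protein of transformed cells, rose by 1.27 in rho0, 1.53 in PKO-1 and 1.93 in PKO-6, and *Plaur*, the urokinase receptor, by 0.92, 0.89 and 1.19. *Ereg*, an EGF receptor ligand, fell in rho0 (-0.52) but rose by 2.61 in PKO-1 and 1.43 in PKO-6. *Timp1*, a metalloproteinase inhibitor, fell in rho0 (-1.71) and PKO-6 (-1.92) and was at -0.32 in PKO-1, under the fold limit.

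Around *Myc*, 1 of 14 network genes was higher and 2 lower in rho0 (of all genes, 20.7% and 21.4%), 1 and 4 in PKO-1 (of all genes, 16.4% and 17.9%), and 3 and 5 in PKO-6 (of all genes, 21.9% and 19.4%). *Mxd4*, which encodes a MAX partner that opposes MYC, fell in rho0, PKO-1 and PKO-6 (-1.87, -1.05 and -1.65). *Mycl*, a *Myc* paralog, had a mean of 29.9 normalized counts in TM6, 75.6 in rho0, 2.52 in PKO-1 and 342 in PKO-6, and so moved in opposite directions in the clones. Of 30 MYC target genes 4 were higher and 3 lower in rho0, 2 and 2 in PKO-1, and 1 and 2 in PKO-6, below the shares over all genes in each case. *Npm1*, a nucleolar chaperone, rose by 0.83 in rho0 and 0.50 in PKO-1 and was at 0.17 in PKO-6 (adjusted p = 0.126). *Odc1*, of polyamine synthesis, rose by 0.80 in rho0 and 0.56 in PKO-6 and was at 0.24 in PKO-1 (adjusted p = 0.0120). *Bop1*, of ribosome assembly, fell in rho0, PKO-1 and PKO-6 (-0.92, -0.66 and -0.75).

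**Figure D5:**
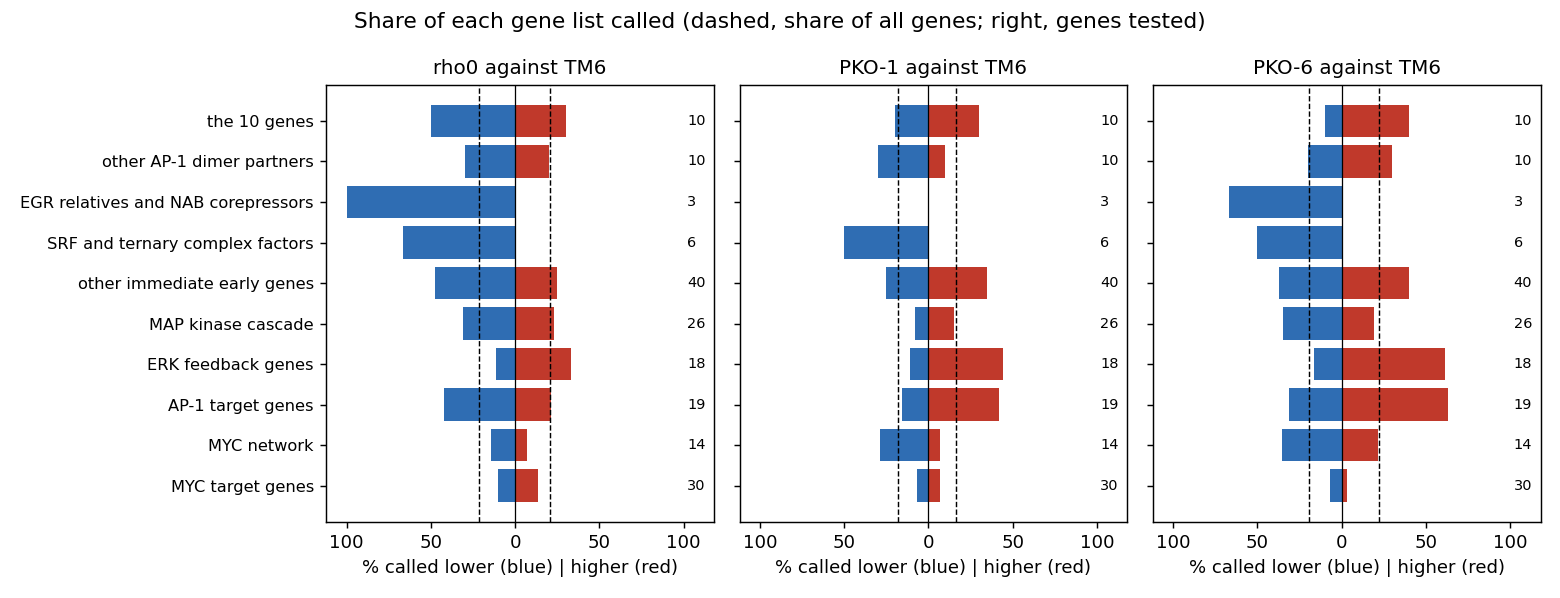
Percentage of tested genes called higher (red, to the right) and lower (blue, to the left) in the 10 genes and 9 lists around them, for rho0, PKO-1 and PKO-6 against TM6. Dashed lines mark the percentage over all tested genes and numbers at the right give the genes tested, which are as few as 3 for the EGR relatives and NAB corepressors.

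Among the 11196 other genes whose mean reached 100 normalized counts, those most like each member in log2 CPM over the 12 libraries were *Arf6* for *Jun* (Pearson r = 0.992), *Msrb3* for *Junb* (0.991), *Lrrc8a* for *Jund* (0.968), *Cdk19* for *Fos* (0.954), *Dtna* for *Fosb* (0.983), *Ttc9* for *Fosl1* (0.997), *Dap* for *Fosl2* (0.996), *Rabggtb* for *Egr1* (0.939), *Cyr61* for *Egr2* (0.976) and *Abcc4* for *Myc* (0.993). With 4 lines behind the 12 libraries, these values mainly describe likeness in the order of the lines. The second gene for *Egr2* was *Cxcl1* (0.968), which was also low in PKO-6 replicate 2.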

How the data were processed

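The 12 libraries held 3 cultures each of TM6, rho0, PKO-1 and PKO-6. RNA was purified with TriZol or with the RNeasy kit, and which sample had which is not given in the sources used here. Per the labels, strand-specific libraries of rRNA-depleted RNA were made in technical duplicate and their reads merged. The authors' processing notes name bcl2fastq, Bowtie2, RSEM 1.2.25 and mm10 (GRCm38). The deposited values are estimated counts (expected counts, not normalized), which the authors collapsed to genes, and TPM and FPKM per transcript, which were summed per gene here.

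Counts were rounded, and edgeR 4.0.16 in R 4.3.3 tested genes that passed filterByExpr (minimum count 10), with TMM scaling and the quasi-likelihood test over 4 lines, or over 3 groups for the pooled clones. The SE is the log2 fold change divided by the square root of F. The fit was tested on simulated data.

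The members and lists were chosen with earlier results of these data known. From each list, up to 2 called genes per direction and comparison could be named where the groups did not overlap and the mean reached 100 normalized counts. A withheld gene of these lists is not reported here by name.

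Alternatives were DESeq2 1.42.0 (size factors, Wald test), no filter, a replicate block, only the compared groups fitted, no *Rn45s*, other thresholds, 3 groups, FPKM or estimated counts for shares, and each library left out. Removal of the chromosome median, which keeps the p, was added after seeing the data.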

Additional observations from a re-analysis of the deposited data

Results flagged for a closer look

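Between the knockout clones, the differences from TM6 were unlike for *Fos*, by a log2 fold change of -1.17 in PKO-1 against PKO-6, and for *Fosl2*, by 0.58.

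For 4 genes the fold changes against TM6 of a knockout clone and of rho0 had opposite signs, and the clone and rho0 differed from each other by the call rule; not all of the differences from TM6 passed it, and *Jund* in rho0, *Egr1* in PKO-6 and *Fos* in PKO-6 overlapped TM6. *Jund* was at -0.61 in PKO-1 against rho0, with fold changes against TM6 of -0.35 and 0.25. *Fosl2* was at 0.99 in PKO-1 against rho0, with 0.18 and -0.81 against TM6. *Egr1* was at 2.39 in PKO-1 and 2.55 in PKO-6 against rho0, with 0.55, 0.70 and -1.85 against TM6 in PKO-1, PKO-6 and rho0. *Fos* was at 2.29 in PKO-6 against rho0, with 0.70 and -1.58 against TM6. The share of all tested genes with this pattern is not given here, so the count of 4 cannot be set against it. By the call rule alone, 32.7% of all tested genes differed in PKO-1 against rho0 and 21.5% in PKO-6 against rho0. Dixon's test over the 6 knockout libraries of both clones flagged no library for any of the 10 genes. Differences between the clones widen the range it uses, so it cannot decide whether a library stands apart within its own clone.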

How the results depend on the processing

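Of 8 genes called in rho0 against TM6, 8 were also called under the replicate block, and the replicate block gave 5, 5, 2, 9, 5 and 5 called members in PKO-1 against TM6, PKO-6 against TM6, PKO-1 against PKO-6, PKO-1 against rho0, PKO-6 against rho0 and the pooled knockouts against TM6, beside 5, 5, 2, 9, 4 and 5 without it. Deviations of same-numbered libraries correlated at -0.47 to 0.423, above 0.1 in 8 of 18 pairs. Those of replicate 3 ran from 0.072 to 0.386, while those of replicates 1 and 2 fell on both sides of 0. These values cannot decide whether same-numbered cultures were handled together. With adjusted p below 0.01 alone, 6 members were called in PKO-1 against PKO-6 and 8 in PKO-6 against rho0, where 50.0% and 40.7% of all tested genes were. With a fold limit of 1 on the log2 scale, 3 were called in PKO-6 against TM6, 1 in PKO-1 against PKO-6, 3 in PKO-1 against rho0 and 2 in the pooled knockouts, where 21.7%, 13.9%, 15.7% and 12.7% of all tested genes were. Leaving out 1 library gave 8 called members in rho0 against TM6, 4 to 6 in PKO-1 against TM6 and 5 to 7 in PKO-6 against TM6. It gave 2 to 4 in PKO-1 against PKO-6, 7 to 9 in PKO-1 against rho0, 3 to 4 in PKO-6 against rho0 and 5 to 6 in the pooled knockouts. The counts of 4 between the clones and 7 in PKO-6 against TM6 came without PKO-6 replicate 2. With all libraries, 29.1% and 41.3% of all tested genes were called in these 2 comparisons. The shares over all genes in the replicate block and in the fits without 1 library are not given here, so those counts cannot be set against them.

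With the chromosome median removed, *Jund* reversed to 0.34 in PKO-6 against TM6 and 0.030 in the pooled knockouts, and *Fos* to -0.33 in the pooled knockouts. Leaving out 1 library moved *Jund* in PKO-6 against TM6 from -0.21 to 0.027, *Fos* in the pooled knockouts from -0.058 to 0.37, *Fosl1* in PKO-1 against rho0 from -0.0089 to 0.074, and *Egr1* in PKO-1 against PKO-6 from -0.55 to 0.29, each with a reversal. Of these, only *Egr1* at -0.55, without PKO-6 replicate 2, was called. Where an alternative changed a call, the cause was not tested. Low counts limit *Fos*, *Fosb* and *Egr2*, and 3 cultures of 1 clone per derived line limit all comparisons.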
